A study of Mus musculus with 6 samples.

Results

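Tbc1d30 and Rassf3 are genes that lie close together on mouse chromosome 10 and whose array signals were higher in ErbB4-/- than in control liver, and 5 protein-coding genes beside them, Msrb3, Lemd3, Wif1, Tbk1 and Xpot, were examined for the same shift. These 7 genes are described out of 22180 that could be named on the array. Tbc1d30 and Rassf3 were chosen because of their higher values in these same 6 arrays, so their difference is a description here and carries no test. The other 5 were chosen by position. Every one of the 7 was read by 1 probe set.

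The arrays came from liver of 6 mice on a C57BL/6J background, each hybridised singly. The 3 controls were wild type. The 3 ErbB4-/- mice lack the receptor tyrosine kinase ErbB4 as full mutants and carry a transgene, named ErbB4-/-HER4heart in the labels, that supplies ErbB4 in the heart and rescues them from death as embryos. Their line had been backcrossed to C57BL/6J for more than 15 generations, and the labels do not name the chromosome that carries the transgene. All 6 mice, controls included, were given DEN once at postnatal day 14, an abbreviation used in liver cancer work for diethylnitrosamine, a DNA-alkylating carcinogen. One label field has every mouse dissected after 32 weeks. Another field has the controls, in replicate order, dissected after 32, 33 and 34 weeks and the ErbB4-/- mice after 35, 36 and 37 weeks, so that the number rises by 1 from each listed sample to the next. Which field is right was not tested. Loss of ErbB4 cannot be told apart from the rescue transgene in this design.

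Tbc1d30 encodes a GTPase-activating protein with a TBC domain. Such proteins switch off Rab GTPases, the small GTPases that direct vesicle traffic, and TBC1D30 has been linked to Rab8, which serves the primary cilium. Rassf3 encodes a member of the Ras association domain family, scaffold proteins of which several bind the MST kinases that head the Hippo cascade. The remaining genes have unrelated roles. Msrb3 encodes a reductase that repairs oxidised methionine, Lemd3 an inner nuclear membrane protein that binds SMAD proteins and dampens TGF-beta and BMP signalling, and Wif1 a secreted protein that binds Wnt ligands. Tbk1 encodes a kinase that relays signals from nucleic acid sensors to the interferon regulatory factor IRF3, and Xpot the carrier that exports transfer RNA from the nucleus. Adjacent genes can share enhancers, a chromatin domain or a stretch of inherited sequence, which is why the neighbours of a shifted gene are of interest.

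In the RefSeq annotation of assembly GRCm38.p6 these 7 genes lie along chromosome 10 in the order Msrb3, Lemd3, Wif1, Tbc1d30, Rassf3, Tbk1 and Xpot. There are 0 measured genes between Tbc1d30 and Rassf3, and genes that were not measured are left out of this order. Erbb4 itself lies on chromosome 1. Its single probe set differed by -0.28 on the log2 scale with overlapping groups (limma, adjusted p = 0.772), and which part of the gene it reads was not examined.

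The promoter windows of Msrb3 and Tbk1 are shown because they belong to the 1 neighbour whose groups separated and to the steadiest one. Each window runs from 250 bases before to 50 bases after the gene's start and was taken from RefSeq, build GRCm38.p6. The window of Msrb3 is chr10:120898922-120899221 and that of Tbk1 chr10:121586745-121587044, both on the minus strand and written 5′ to 3′ as transcribed. Capitals mark every match to the 8 motifs searched on both strands, here the GC box GGGCGG or its complement and, in Tbk1 only of these 2 windows, the E-box CACGTG.
Msrb3: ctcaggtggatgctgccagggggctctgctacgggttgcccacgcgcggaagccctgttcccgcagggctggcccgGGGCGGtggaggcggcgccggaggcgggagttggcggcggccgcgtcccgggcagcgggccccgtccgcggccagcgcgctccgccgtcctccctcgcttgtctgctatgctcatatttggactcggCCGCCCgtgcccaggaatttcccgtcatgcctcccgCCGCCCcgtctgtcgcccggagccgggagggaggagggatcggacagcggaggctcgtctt
Tbk1: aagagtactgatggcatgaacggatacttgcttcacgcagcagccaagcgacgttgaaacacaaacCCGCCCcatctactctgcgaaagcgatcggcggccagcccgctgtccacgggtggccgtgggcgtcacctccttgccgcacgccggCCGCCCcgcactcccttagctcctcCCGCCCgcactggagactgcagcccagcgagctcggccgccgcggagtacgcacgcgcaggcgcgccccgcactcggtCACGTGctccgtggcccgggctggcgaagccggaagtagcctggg

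Both windows are rich in G and C, at 74% for Msrb3 and 69% for Tbk1, and each holds 3 GC boxes. A GC box was found in all 5 windows that could be matched and in 35.7% of the 32851 promoter windows of the same length. The E-box was found in the windows of Wif1, Tbk1 and Xpot, against 7.15% of all windows. The CCAAT box CCAAT was found only in the window of Lemd3 among the 5 (37.4% of all windows), the TATA box TATAAA only in that of Wif1 (13.6%), and the AP-1 site TGANTCA only in that of Xpot (7.81%). The cyclic AMP response element TGACGTCA, the heat shock element core GAANNTTC and the TEAD site GGAATG had 0 matches in the 5 windows, and occur in 1.79%, 7.86% and 14.7% of all windows. No motif separated Msrb3 from the other 4, and such a match is no evidence of binding.

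Tbc1d30 read 6.01, 6.22 and 6.64 on the control arrays and 7.49, 6.79 and 7.88 on the ErbB4-/- arrays, as log2 values given here and throughout for replicates 1, 2 and 3 in turn. Every ErbB4-/- array lay above every control array, and the gap between the lowest ErbB4-/- array and the highest control array was 0.15. The means were 6.29 ± 0.32 in control and 7.39 ± 0.55 in ErbB4-/- liver (SD, n = 3 each), which differ by 1.10 (standard error 0.31) on the log2 scale, or 2.14-fold. This places Tbc1d30 at rank 18 of 22180 genes by rise. The spread among the ErbB4-/- arrays was wide, with replicate 2 close to the controls and replicate 3 the highest.

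Rassf3 read 7.87, 8.29 and 8.30 on the control arrays and 8.74, 8.50 and 9.11 on the ErbB4-/- arrays. The groups did not overlap here either, and the gap between them was 0.20. The means were 8.15 ± 0.25 and 8.78 ± 0.31 (SD, n = 3 each), which differ by 0.63 (standard error 0.20), or 1.55-fold, and the gene ranked 71 by rise. Over the whole array, 4.52% of genes were higher in ErbB4-/- liver without overlap, and nothing is read from the 2 chosen genes being among them. By limma over all genes, neither was called, which is no test of 2 genes chosen on these same values. In that fit 1 of 22180 genes, or 0.00451%, passed at an adjusted p of 0.05.

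**Figure D1:**
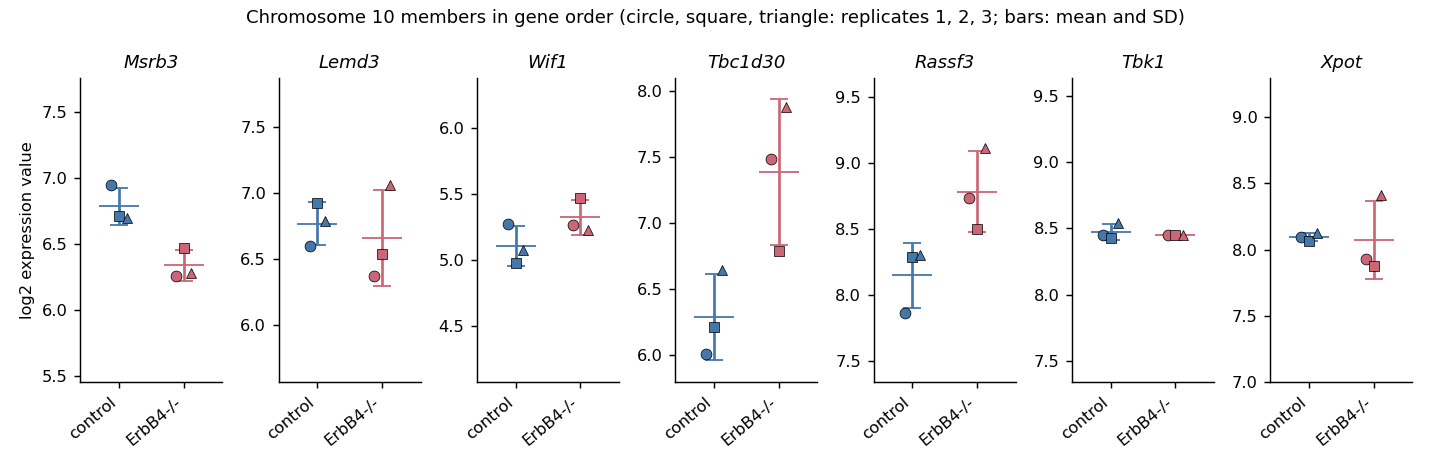
Log2 expression values (y axis, each panel spanning the same log2 range) of the 7 chromosome 10 genes in control and ErbB4-/- liver, with 1 point per array and the mean and SD of 3 arrays as bars. Tbc1d30 and Rassf3 separate upwards with gaps of 0.15 and 0.20, Msrb3 separates downwards with a gap of 0.23, and the groups of the other 4 genes overlap.

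The 2 genes ranked the 6 arrays alike. From lowest to highest, the order was control replicates 1, 2 and 3, then ErbB4-/- replicates 2, 1 and 3, for both. Both were chosen as higher in ErbB4-/- liver, which already places the controls below the ErbB4-/- arrays. Of the 1002 genes higher without overlap, 39, or 3.89%, had this order, which was looked up after the values had been seen. The amplitude differed, with a range over the arrays of 1.87 for Tbc1d30 and 1.24 for Rassf3. None of the 5 neighbours had this order, and each of them had another array at the bottom.

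Tbk1, the gene next to Rassf3, had a difference near 0. Its control arrays read 8.45, 8.43 and 8.54, and all 3 ErbB4-/- arrays read 8.45. The means were 8.47 ± 0.06 and 8.45 ± 0.0005 (SD, n = 3 each). ErbB4-/- minus control came to -0.02 (standard error 0.05, limma, adjusted p = 0.892), and its 95% interval ran from -0.15 to 0.10. The 6 arrays hold only 4 distinct values for Tbk1, and 57.5% of all genes have equal values on at least 2 arrays, a property of the deposited table that also sets the small SD of the ErbB4-/- arrays.

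Xpot, the gene beyond Tbk1, had nearly the same mean in both groups and a wider spread in ErbB4-/- liver. It read 8.10, 8.07 and 8.12 on the control arrays and 7.93, 7.88 and 8.41 on the ErbB4-/- arrays. Its ErbB4-/- arrays fell on both sides of the controls, with replicate 3 above and the others below. Between the groups it differed by -0.02 (standard error 0.15, limma, adjusted p = 0.971), with a 95% interval from -0.40 to 0.35.

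On the other side, Wif1 lies next to Tbc1d30. It read 5.28, 4.98 and 5.07 on the control arrays and 5.27, 5.47 and 5.23 on the ErbB4-/- arrays. Only ErbB4-/- replicate 2 exceeded all controls, so the groups overlapped. The difference of 0.21 (standard error 0.11), with a 95% interval from -0.05 to 0.48, did not pass (limma, adjusted p = 0.760). This probe set sits near the median of all genes, at percentile 49.2 of mean level, and no background signal was used here.

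Lemd3 read 6.60, 6.92 and 6.78 on the control arrays and 6.37, 6.54 and 7.06 on the ErbB4-/- arrays. As with Xpot, ErbB4-/- replicate 3 was the highest array of all 6 and ErbB4-/- replicates 1 and 2 the lowest. Between the groups Lemd3 differed by -0.11 (standard error 0.20, limma, adjusted p = 0.876), with a 95% interval from -0.60 to 0.38.

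Msrb3, the outermost gene on that side, had lower values in ErbB4-/- liver. It read 6.95, 6.71 and 6.70 on the control arrays and 6.26, 6.47 and 6.28 on the ErbB4-/- arrays, with a gap of 0.23 between the groups. The means were 6.78 ± 0.14 and 6.34 ± 0.12 (SD, n = 3 each), with ErbB4-/- minus control at -0.45 (standard error 0.10). The difference did not pass over all genes (limma, adjusted p = 0.760, unadjusted p = 0.00455). Its unadjusted 95% interval, from -0.69 to -0.20, lies below 0, opposite to the sign of Tbc1d30 and Rassf3.

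Over the 5 neighbours, 0 passed in either direction (limma, adjusted p between 0.760 and 0.971), and 1, Msrb3, was lower at an unadjusted p under 0.05, beside 2.94% of all genes lower and 2.77% higher at that level. By sign 1 difference was above 0 and 4 were below. By overlap 0 of 5 were higher in every ErbB4-/- array, beside 4.52% of all genes, and 1 of 5 was lower in every one, beside 3.81%. The upper bound of the 95% interval was at most 0.48 for each of the 5. Differences in either direction lie within the intervals of Lemd3, Wif1, Tbk1 and Xpot.

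The search was widened to the 10 measured genes on each flank, which gave 28 measured genes in order, among them the non-coding gene Gm15910 within the run. The median difference of the 28 was 0.003, beside 0.01 over all genes and 0.003 over the 1054 measured genes of chromosome 10, with 14 genes above 0 and 14 below. Among them 2 were higher without overlap, beside 4.52% of all genes, and these were Tbc1d30 and Rassf3 themselves. Without them 0 of 26 were higher in this way, too few genes to tell this count from that share. The highest difference of the 26 was that of Wif1. Gm15910 differed by 0.04.

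Of the 28, 2 were lower without overlap, beside 3.81% of all genes, and these were Msrb3 and Irak3. Irak3 encodes an inhibitory kinase-like protein of Toll-like receptor signalling that is known from macrophages. It read 6.51, 6.01 and 6.27 on the control arrays and 5.96, 5.70 and 5.16 on the ErbB4-/- arrays, which gives -0.66 (standard error 0.24) for ErbB4-/- minus control (limma, adjusted p = 0.760). Avpr1a, a vasopressin receptor gene of the other flank named after its values were seen, differed by -0.61 with overlapping groups. ErbB4-/- replicate 3 was the lowest array for both. On chromosome 10 as a whole, 5.50% of genes were higher and 4.36% lower without overlap.

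**Figure D2:**
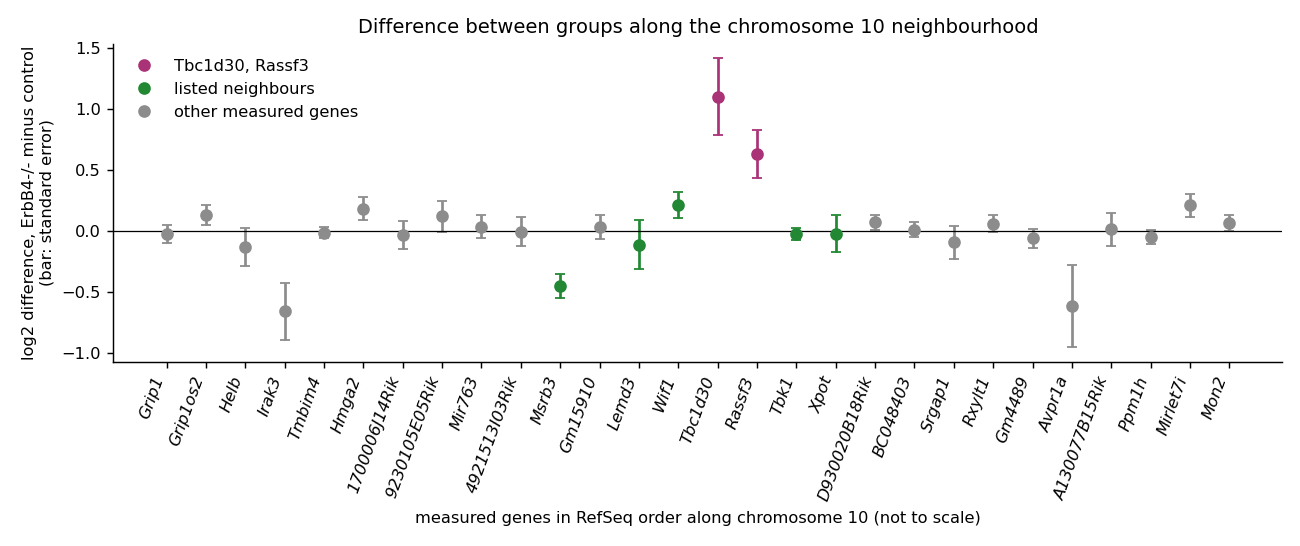
Log2 difference between ErbB4-/- and control liver (y axis, bars show the limma standard error, n = 3 arrays each) for the 28 measured genes in RefSeq order (x axis, evenly spaced and not to scale). Tbc1d30 at 1.10 and Rassf3 at 0.63 stand above neighbours on both sides, Tbk1 and Xpot lie at -0.02, Msrb3 lies at -0.45, Irak3 at -0.66 and Avpr1a at -0.61.

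Levels of Tbc1d30 and Rassf3 were set beside the week of dissection, as the field that differs between mice gives it. These values hold only if that field, and not the one with 32 weeks for every mouse, is right. In control liver Tbc1d30 was lowest at 32 weeks and highest at 34 weeks, and among ErbB4-/- mice both genes were highest at 37 weeks and lowest at 36 weeks. In a fit with genotype and week, the genotype difference of Tbc1d30 was 0.33 (standard error 0.60) and the slope 0.26 per week (standard error 0.17). For Rassf3 the genotype difference in that fit was 0.02 (standard error 0.32) and the slope 0.20 per week (standard error 0.09). Since every ErbB4-/- mouse has a later week than every control in that label, week and genotype are separated only by the weeks within each group. With week in the fit the neighbours differed by -0.28 for Msrb3, -0.77 for Lemd3, 0.39 for Wif1, -0.09 for Tbk1 and -0.40 for Xpot, none of which passed (limma, adjusted p = 0.994 for each).

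**Figure D3:**
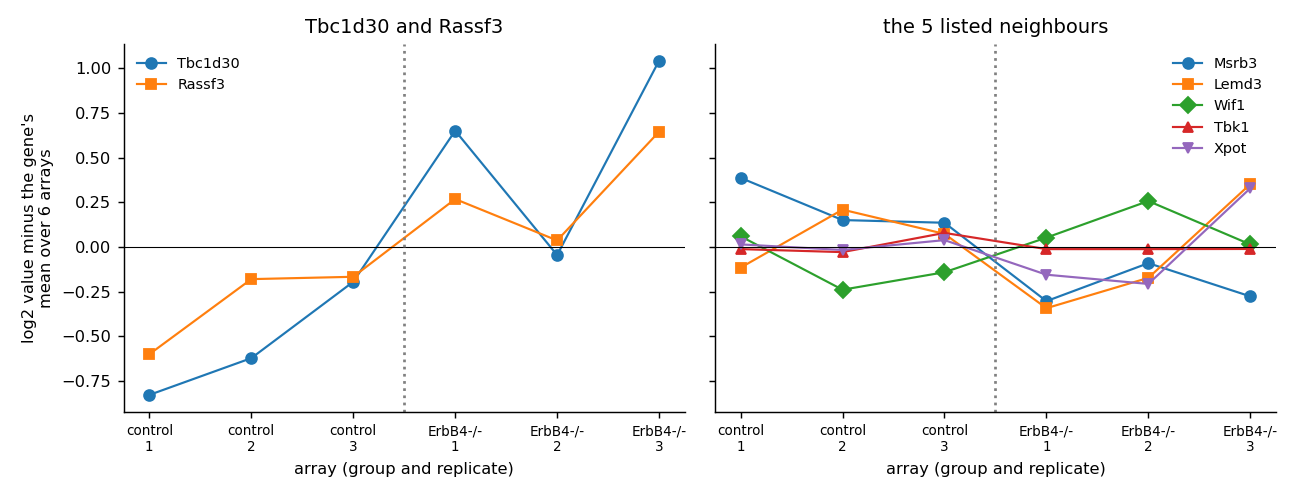
Log2 value minus the gene's mean over 6 arrays (y axis) for each array (x axis, by group and replicate), for Tbc1d30 and Rassf3 on the left and the 5 neighbours on the right, with a dotted line between the groups. Tbc1d30 and Rassf3 rank the 6 arrays in the same order, with ranges of 1.87 and 1.24, and no neighbour does.

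A pair of arrays stood apart from their groups. Control replicate 1 had a mean of 7.05 over 8 male-biased liver genes, against 10.68 to 11.08 on the other 5 arrays, and 7.90 over 6 female-biased liver genes, against 6.04 to 6.47. The female-biased mean was raised mostly by Cyp2b9, at 12.59 against 7.84 to 8.46, and Cyp2b13, at 10.91 against 5.89 to 6.46. The other female-biased genes did not all share this rise. ErbB4-/- replicate 3 had a mean of 6.50 over 16 immediate early genes, against 8.11 and 8.35 on the other ErbB4-/- arrays and 8.54 to 9.35 on the control arrays. Of those 16 genes 15 had lower means in ErbB4-/- liver and 9 did not overlap, beside 3.81% of all genes lower without overlap. These arrays are also the lowest and the highest array for Tbc1d30 and for Rassf3. Without both arrays the difference was 0.71 for Tbc1d30 and 0.33 for Rassf3. Among the neighbours the difference was then -0.34 for Msrb3, -0.40 for Lemd3, 0.34 for Wif1, -0.04 for Tbk1 and -0.19 for Xpot, none of which passed (limma, adjusted p between 0.746 and 0.808). Wif1 was then as far above 0 as Rassf3. For Wif1 the arrays left out were the highest control and the lowest ErbB4-/- array, so its difference could only rise. For Tbc1d30 and Rassf3 it could only fall, and nothing is read from this likeness.

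The mean over the 9 measured hepatocyte markers was 12.66, 12.67 and 12.72 in control and 12.58, 12.65 and 12.60 in ErbB4-/- liver. The mean levels of the single markers ran from 7.20 to 14.34. Of the 9, 8 had lower means in ErbB4-/- liver and 1 was lower without overlap. Markers of several other cell types had lower means in ErbB4-/- liver. Over all genes 3.81% were lower and 4.52% higher without overlap, the background for the counts of every cell type here. Of 12 Kupffer cell and macrophage markers 12 had lower means and 10 did not overlap, with list means of 8.47 to 8.81 in control and 7.25 to 8.12 in ErbB4-/- arrays. Of 10 neutrophil markers 10 had lower means and 8 did not overlap, with list means of 5.28 to 7.31 and 4.55 to 4.95 and a median difference of -2.07. Of 10 endothelial markers 10 had lower means and 3 did not overlap, with list means of 8.19 to 8.58 and 7.06 to 8.15. Of 10 stellate cell and fibroblast markers 9 had lower means and 3 did not overlap, with list means of 7.51 to 7.62 and 6.91 to 7.51. In whole liver, fewer cells of a type and less RNA per cell cannot be told apart, and the part of these markers in the values of Msrb3, Irak3, Tbc1d30 or Rassf3 was not tested. T and NK cell markers, 10 measured, had list means of 4.58 to 4.66 and 4.52 to 4.55, with 1 higher and 2 lower without overlap. B and plasma cell markers, 7 measured, had list means of 6.07 to 6.37 and 5.60 to 6.10, with 1 lower without overlap. Muscle markers, 10 measured, had list means of 5.26 to 5.34 and 5.40 to 5.51, with 2 higher without overlap. Cholangiocyte markers, 6 measured, had list means of 4.67 to 4.75 and 4.66 to 4.76.

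The families and pathways of the members were compared next, to see whether relatives of the 2 chosen genes differed too. None of the 8 lists had a gene that passed (limma, lowest adjusted p = 0.760 in each), and the median difference over all genes was 0.01. At an unadjusted limma p under 0.05, 2.77% of all genes were higher and 2.94% lower, the background for the counts of each list. The 36 other TBC-domain Rab regulators had a median difference of -0.03, between -0.30 and 0.36, with 2 higher and 2 lower at an unadjusted p under 0.05. Sgsm2 differed by -0.26, Tbc1d15, a GTPase-activating protein for Rab7, by -0.30, and Tbc1d21 by 0.35 at a low level of 3.45 in control.

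Among 18 measured genes of Rab8 and primary cilium traffic the median difference was 0.02, with 9 above 0, 8 below and 1 equal on every array, and 0 had an unadjusted p under 0.05. Rab8a, the GTPase at the centre of that pathway and named after its values were seen, measured 8.99 ± 0.03 in control and 8.98 ± 0.05 in ErbB4-/- liver. Rab8b measured 5.49 ± 0.35 and 5.05 ± 0.28. Rab3ip, which encodes the exchange factor Rabin8 that activates Rab8, read 8.65, 8.75 and 8.80 on the control arrays and 8.90, 8.83 and 9.15 on the ErbB4-/- arrays. Its groups did not overlap, and the difference of 0.23 (standard error 0.10) did not pass (limma, adjusted p = 0.760). The intraflagellar transport gene Ift52 differed by 0.21.

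RASSF proteins and the MST-LATS cascade, 17 measured genes, had a median difference of -0.10, with 6 above 0, 10 below and 1 equal on every array, and 1 higher and 1 lower at an unadjusted p under 0.05. Rassf4 measured 6.34 ± 0.28 in control and 5.81 ± 0.12 in ErbB4-/- liver, or -0.53, opposite in sign to Rassf3. Rassf7 measured 6.68 ± 0.07 and 6.85 ± 0.02, and Nf2, the upstream tumour suppressor of the Hippo cascade, 6.62 ± 0.11 and 6.86 ± 0.17. None of these differences passed (limma, adjusted p = 0.760 for each).

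The lists for the neighbours' pathways had medians from -0.003 to 0.10. Genes of TBK1 signalling, 12 measured, had a median of 0.01 and 2 lower at an unadjusted p under 0.05, the adaptor genes Tank at -0.28 and Tbkbp1 at -0.18, while the autophagy receptor gene Sqstm1 differed by 0.19. Exportins and the Ran cycle, 12 measured, had a median of -0.003 and 0 at an unadjusted p under 0.05, with Rcc1 at 0.14, Ranbp2 at -0.16 and Xpo5 at 0.11. Secreted Wnt antagonists, 12 measured, had a median of -0.001 and 0 at that level, with Sost at 0.13, Sostdc1 at -0.12 and Sfrp5 at 0.10. The list of LEM-domain, lamina and inner nuclear membrane genes also held Smad1, Smad2, Smad3 and Smad5, which encode SMAD proteins and are not of that class. Its 16 measured genes had a median of 0.002 and 0 at that level. Among them the lamin B receptor gene Lbr differed by -0.47, Sun2 by 0.30 and Smad1 by -0.12. Methionine sulfoxide reductases and thioredoxins, 8 measured, had a median of 0.10 with 7 of 8 above 0, and 1 at that level, the mitochondrial thioredoxin gene Txn2 at 0.22. Msra and Msrb1 differed by 0.16 and 0.13, on the other side of 0 from Msrb3.

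**Figure D4:**
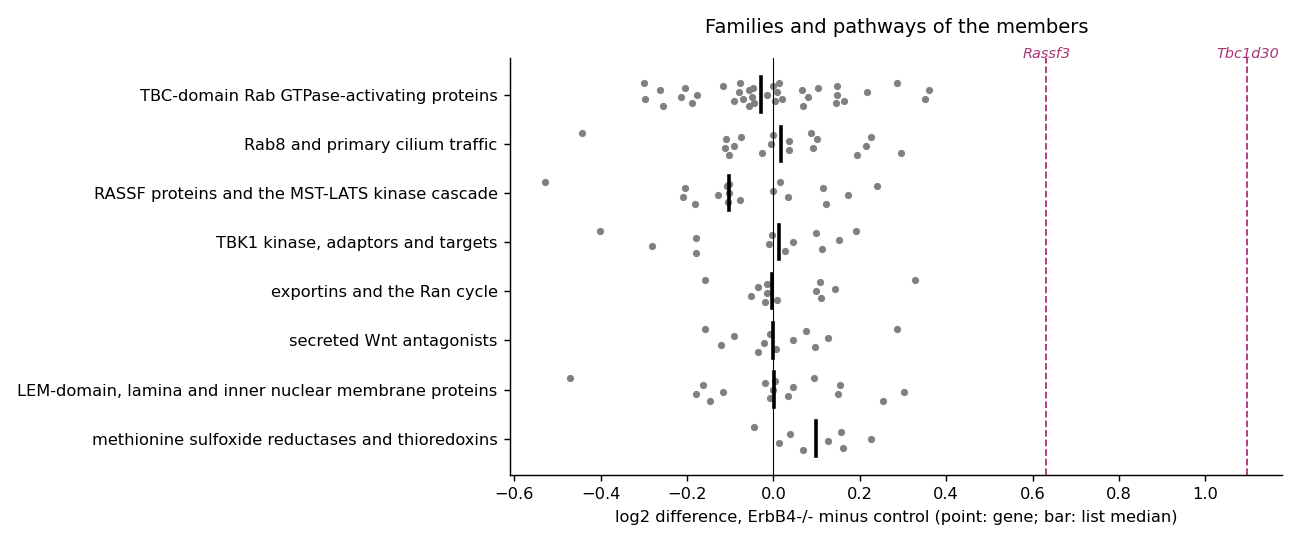
Log2 difference between ErbB4-/- and control liver (x axis) for each measured gene of the 8 families and pathways (rows), with the median of each list as a bar and Tbc1d30 and Rassf3 as dashed lines for scale. The list medians run from -0.10 to 0.10, and the lines stand at 1.10 and 0.63, the values those genes were chosen on.

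The genes most like Tbc1d30 across the 6 arrays were looked up by the mean absolute distance between profiles centred on their own mean, among genes not below the median mean level. Clone-type symbols, microRNA and other small RNA genes, and olfactory or vomeronasal receptor genes were left out of the genes compared. The 5 nearest were Fgfr1 at a distance of 0.18, Creld2 at 0.21, Neb at 0.24, Trim43c at 0.25 and Rassf3 at 0.26, out of 10363 genes compared. Only Rassf3 among these lies on chromosome 10. Both genes were chosen as higher in these same arrays, and the distance depends on the size of that rise. Nothing is therefore read from their closeness or from the places of the neighbours. For Rassf3, whose amplitude is smaller, the nearest were Bbs10, Acaa1b and Pnn, each at 0.09, then Fitm2 at 0.10 and Tff3 at 0.11, and Tbc1d30 followed at place 1416. Bbs10, which encodes a chaperonin-like protein of the primary cilium disease Bardet-Biedl syndrome, is also on chromosome 10. Measured by distance to Tbc1d30, Xpot came at place 4571, Tbk1 at 5433, Lemd3 at 7178 and Msrb3 at 9851 of the same ranking, which does not include Wif1, as it lies below the median level.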

How the data were processed

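Liver RNA of 6 mice, 3 control and 3 ErbB4-/-, was labelled with Affymetrix whole-transcript kits and hybridised to 1 array per mouse, per the labels' protocols. The table deposited by the authors holds log2 values that they had already processed. How background, normalization and summarisation were handled is not stated in the labels or file, and the log base was read from the range of 1.74 to 14.37. Array medians ran from 4.83 to 4.86. Precision is limited by having 3 arrays a group, and no background signal was used.

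Of 41345 probe sets, 23521 name 1 gene symbol, 1814 several and 16010 none. The probe set with the highest mean stood for a gene, which gave 22180 genes. RefSeq genes of GRCm38.p6 served for gene order only, since no label or file names the build of the array. Differences, ErbB4-/- minus control, were fitted in limma 3.58.1 (lmFit, then eBayes; R 4.3.3) as two-sided tests, with Benjamini-Hochberg adjustment over 22180 genes at a threshold of 0.05. The fitting code was also run on simulated data with independent normal noise and known shifts. These lacked the equal values and the outlying arrays of the deposited table, and nothing is read from that run. Intervals are at 95% and unadjusted.

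The genes, lists and tests were chosen with earlier results of these data known. Of 263 listed genes 246 were measured. Named genes are the 7 members, the measured genes among them, flanking genes of at least 0.3 without overlap, the 3 smallest p of each list, the 5 nearest profiles and Erbb4. Outside this rule, Rab8a, Avpr1a, Cisd1, Rab5b, Cyp2b9 and Cyp2b13 were named after their values were seen. Tbc1d30 and Rassf3 have no promoter window in the table used. Figures were drawn with matplotlib 3.10.9.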

Additional observations from a re-analysis of the deposited data

How the results depend on the processing

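Of the differences, Msrb3 stayed below 0 and Tbc1d30 and Rassf3 above 0 under all 16 alternatives. The groups of these genes do not overlap, so leaving out arrays could not turn their sign. Tbc1d30 and Rassf3 were also chosen as higher, so nothing is read from their sign. Wif1 stayed above 0 under the 15 alternatives that include it, since it is below the median level. None of the 5 neighbours passed under any alternative. Thresholds of 0.1 and 0.01 were set on the main fit, where the lowest adjusted p of the 5 was 0.760 (limma). They could therefore change no call and add no support. With the week as a covariate Tbc1d30 fell to 0.33 (standard error 0.60) and Rassf3 to 0.025 (standard error 0.32). That fit holds only if the label field with differing weeks is right, and it separates week from genotype poorly. The list medians were then 0.024 for TBC-domain genes, -0.0025 for RASSF genes and -0.053 for exportins. They were 0.050 for the LEM-domain list, SMAD genes included, and 0.13 for methionine sulfoxide reductases. Without both control replicate 1 and ErbB4-/- replicate 3, Rassf3 was 0.33, Lemd3 -0.40, and 7 of the 28 genes were higher and 5 lower without overlap, where with fewer arrays to separate 15.4% of all genes were higher and 12% lower. Centring each array on its median gave 4 higher instead of 2, beside 5.34% of all genes, and 5 genes on each side gave 1 lower instead of 2.

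Leaving out 1 array at a time gave 0.85 to 1.39 for Tbc1d30, 0.47 to 0.77 for Rassf3, -0.31 to 0.034 for Lemd3, -0.045 to 0.0087 for Tbk1 and -0.19 to 0.075 for Xpot. Lemd3 turned to 0.034 without ErbB4-/- replicate 1, Tbk1 to 0.0087 without control replicate 3, and Xpot to 0.049 without ErbB4-/- replicate 1 and 0.075 without ErbB4-/- replicate 2. Of the 28 genes, 2 to 5 were then higher and 2 to 4 lower without overlap, beside 8.1% to 10.6% and 6.82% to 8.47% of all genes. List medians ranged from -0.097 to -0.048 for RASSF genes, -0.033 to -0.0079 for TBC-domain genes, -0.041 to 0.015 for TBK1 signalling, -0.0048 to 0.047 for exportins, -0.031 to 0.051 for Wnt antagonists and 0.052 to 0.098 for methionine sulfoxide reductases.

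The replicate numbers gave no sign of pairing over all genes, with correlations of deviations of -0.10, 0.03 and -0.05 for numbers 1 to 3. With 1 pair of arrays behind each value, these correlations cannot exclude a pairing. With the replicate block the difference stayed at 1.10 for Tbc1d30, 0.63 for Rassf3 and -0.45 for Msrb3, and no call changed (limma, adjusted p = 0.780 for Msrb3). The standard error was then 0.20 instead of 0.31 for Tbc1d30, 0.16 instead of 0.20 for Rassf3 and 0.11 instead of 0.10 for Msrb3. Other probe sets of the members could not be tried, since each has 1.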

Other observations

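Of the 39 genes that rank the 6 arrays in the order of Tbc1d30, 6 lie on chromosome 10. Besides Tbc1d30 and Rassf3 these are Bbs10, Rab3ip, Cisd1 and Rab5b, 4 of the remaining 37 genes or 10.8%, beside 5.60% on this chromosome among the 1000 genes higher without overlap other than Tbc1d30 and Rassf3. The order was noticed after the values were seen and was not tested.

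Bbs10 read 5.17, 5.51 and 5.52 on the control arrays and 5.85, 5.60 and 6.10 on the ErbB4-/- arrays. Cisd1, which encodes an iron-sulfur protein of the outer mitochondrial membrane, differed by 0.29 (standard error 0.11). Rab5b, a GTPase gene of early endosomes, differed by 0.19 (standard error 0.09). None of these genes is among the 28 measured genes of the neighbourhood. In gene order 41 measured genes lie between Rab3ip and Tbc1d30, 71 between Bbs10 and Tbc1d30, 100 between Rab5b and Tbc1d30 and 482 between Cisd1 and Tbc1d30. Distances in bases were not examined, and a link between these genes and the members was not tested. Over the 1054 measured genes of chromosome 10 the median difference was 0.003.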
